A study of Mus musculus with 12 samples.

Results

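The genes described here are regulators and markers of the epithelial-mesenchymal transition (EMT), measured by RNA sequencing in 12 subcutaneous tumors grown from 1 mouse pancreatic cancer cell line. They were chosen by name as Zeb1, Zeb2, Snai1, Snai2, Twist1, Twist2, Prrx1, Vim and Cdh2. All 9 had a row among the 22630 genes of the deposited tables, and all 9 passed the count filter in every comparison. In EMT an epithelial cell loses its junctions and apical-basal polarity and takes on the shape, matrix contacts and motility of a mesenchymal cell. The program is run by a small set of transcription factors. ZEB, SNAIL and TWIST proteins bind E-box sequences and turn off junction genes such as Cdh1, which codes for E-cadherin, while mesenchymal genes such as Vim and Cdh2 come on. In pancreatic cancer EMT is linked to invasion and dissemination, but the same genes are also normal products of fibroblasts, vessel cells and macrophages, so their level in a whole tumor sums over all of these cells.

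The line, KCip53-1, came from a primary tumor of a single mouse that carried Ptf1a-Cre, TREp53R270H and R26rtTa/rtTa among its alleles. Ptf1a-Cre acts in pancreatic epithelium, where it turns on the transactivator rtTa, and doxycycline (dox) then switches on mutant p53R270H from the transgene. The study's sequencing of its KCip53 lines found the transgene but no wild-type Trp53 sequence. Every tumor started from cells with these alleles, and by the labels the groups differed in dox treatment. The 4 no-dox tumors grew in mice that were never given it. The study selected its KCip53 lines by the transgene's dsRed reporter and grew them with dox, so cells of all groups had met dox in culture. Dox-exposed tumors are here those of mice given dox. The 4 plus-dox tumors grew in mice that drank dox at 0.2 g/l in sucrose for 36 days. The 4 off-dox tumors came, by the labels, from mice that drank it for 33 days and went without it for the last 3. The study's text instead places the removal of dox at the time when tumors could first be felt, so the time off dox is uncertain. Hosts were NSG mice aged 8 to 10 weeks at the start, a strain without mature lymphocytes or NK cells, and each flank tumor began from 500000 injected cells. A mouse carried 2 tumors, but the sources used here do not give the mouse of each tumor. Each tumor was treated as an independent sample, so p-values measure only the spread between these tumors and would be too small where a host contributed both of its tumors to a group.

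Libraries held 19845923 to 33137609 reads on genes. That was 88.4% to 89.4% of mapped reads in the no-dox group, 82.2% to 87.1% in the plus-dox group and 81.1% to 85.8% in the off-dox group. Mapped reads were inferred from the deposited counts and RPKM. The no-dox group stood apart from the other 8 tumors in this share. Plus-dox tumor 2 and off-dox tumor 4 stood apart on the first principal component of 14586 genes, with scores of 102 and 66.9 where the other 10 tumors did not exceed 6.18. Trp53 ran from 40.1 to 57.4 RPKM (reads scaled by exon length and mapped reads) in the no-dox group, 40.4 to 56.0 in the plus-dox group and 41.6 to 45.4 in the off-dox group (plus-dox vs no-dox log2 fold change 0.04, edgeR adjusted p = 0.89), so this gene gave no check of the labels. Epithelial markers were present in all tumors, with 11 of 12 over a mean of 1 RPKM.

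The ZEB genes share a sequence feature in their transcripts. MicroRNAs of the miR-200 family hold epithelial cells in their state and are the best known repressors of Zeb1 and Zeb2, and ZEB proteins in turn repress the miR-200 genes. The 5 mature sequences are shown to make the sites that follow readable (RefSeq, GRCm38.p6), with the seed, bases 2 to 8 from the 5′ end, in capitals.
mmu-miR-200b-3p: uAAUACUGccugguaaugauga
mmu-miR-200c-3p: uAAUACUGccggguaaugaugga
mmu-miR-429-3p: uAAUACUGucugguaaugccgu
mmu-miR-200a-3p: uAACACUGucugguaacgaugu
mmu-miR-141-3p: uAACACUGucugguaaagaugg
They fall into a group of 3 with the seed AAUACUG and a group of 2 with the seed AACACUG, whose perfect matches in a transcript are CAGTATT and CAGTGTT. Searched on the transcript strand in the longest annotated 3′ untranslated region of each gene (GENCODE, mm9), Zeb1 held 5 and 4 of these matches and Zeb2 also held 5 and 4. Snai1 held 1 and 0, Snai2 held 1 and 1, and Twist1, Twist2, Prrx1, Vim and Cdh2 held neither. Over 19915 genes, 12.3% had at least 1 CAGTATT and 16.1% at least 1 CAGTGTT, whereas only 0.321% and 0.708% had 3 or more. Length differed between the regions, from 312 bases in Vim to 4939 in Zeb2, but Prrx1 held no match in 4891 bases. A match is a description of the sequence and not evidence of binding. The mature microRNAs were not measured by these polyA libraries. The gene rows Mir200c and Mir141 were at 0 in all 12 tumors, and Mir200a, Mir200b and Mir429 did not exceed 1.13 RPKM.

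The E-boxes that ZEB and SNAIL proteins bind best, CACCTG and its reverse complement CAGGTG, were searched on both strands in promoter windows that run from 250 bases before to 50 bases after the gene start (RefSeq, GRCm38.p6). Of the 9 EMT genes, 6 had a window (all but Zeb1, Snai2 and Cdh2) and 1 of the 6, Snai1, held the E-box. In a list of 20 epithelial genes known to be repressed in EMT, 13 had a window and all 13 held at least 1. Over all genes with a window the share was 22.6%, and none of 8 other mesenchymal genes held one. The list was made of known targets, so its share is a description. Snai1 is shown because it is the single EMT gene with the motif, and 2 epithelial genes, the polarity gene Crb3 and the tight junction gene Cldn4, show the motif repeated near the start (gene strand, E-boxes in capitals). The windows are chr2:167537945-167538244 (plus strand), chr17:57061951-57062250 (plus strand) and chr5:134946885-134947184 (minus strand).
Snai1: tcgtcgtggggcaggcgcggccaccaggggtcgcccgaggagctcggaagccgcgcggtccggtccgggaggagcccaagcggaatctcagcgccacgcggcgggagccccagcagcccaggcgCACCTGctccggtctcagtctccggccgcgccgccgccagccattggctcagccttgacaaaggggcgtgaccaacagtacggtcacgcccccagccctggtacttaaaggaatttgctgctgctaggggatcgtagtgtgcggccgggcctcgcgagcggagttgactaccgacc
Crb3: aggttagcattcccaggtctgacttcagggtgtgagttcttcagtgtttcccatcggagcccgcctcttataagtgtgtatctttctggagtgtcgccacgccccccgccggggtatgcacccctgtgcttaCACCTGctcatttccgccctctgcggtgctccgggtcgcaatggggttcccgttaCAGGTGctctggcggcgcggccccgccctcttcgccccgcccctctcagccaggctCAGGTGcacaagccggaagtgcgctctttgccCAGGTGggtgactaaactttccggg
Cldn4: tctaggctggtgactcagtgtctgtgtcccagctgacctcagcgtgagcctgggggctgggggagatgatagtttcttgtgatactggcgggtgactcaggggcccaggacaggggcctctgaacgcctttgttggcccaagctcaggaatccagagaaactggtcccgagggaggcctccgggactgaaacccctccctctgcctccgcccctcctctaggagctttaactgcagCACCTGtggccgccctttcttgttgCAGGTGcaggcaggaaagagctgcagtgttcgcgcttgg
The Crb3 window held 4 E-boxes, the Cldn4 window 2 and the Snai1 window 1.

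Per kilobase of exon, Vim stood far above the rest and the transcription factors were expressed at a low to moderate level. Vim, the intermediate filament of mesenchymal cells, averaged 910.1 RPKM over the 12 tumors. Cdh2, Twist1, Prrx1, Zeb1, Zeb2 and Snai1 followed within a narrow band, with averages of 11.9, 11.9, 11.7, 11.6, 11.3 and 10.4 RPKM. Neighbours in this band did not differ beyond their spread, since the one was above the other in only 4 to 7 of 12 tumors. Twist2 at 4.01 RPKM and Snai2 at 3.90 RPKM were lowest and also did not differ from each other, and Snai1 was above Twist2 in 12 of 12 tumors. Within the families, Zeb1 and Zeb2 were near equal (median ratio 1.05 in the no-dox group, 0.99 in the plus-dox group and 1.04 in the off-dox group), whereas Snai1 was above Snai2 in every tumor (ratio 2.02 to 4.53) and Twist1 above Twist2 in every tumor (ratio 1.41 to 5.41). Raw counts ranged from 54 reads for Twist2 in 1 tumor to 105530 for Vim, so counting error was small for all but Twist2 and Snai2.

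**Figure D1:**
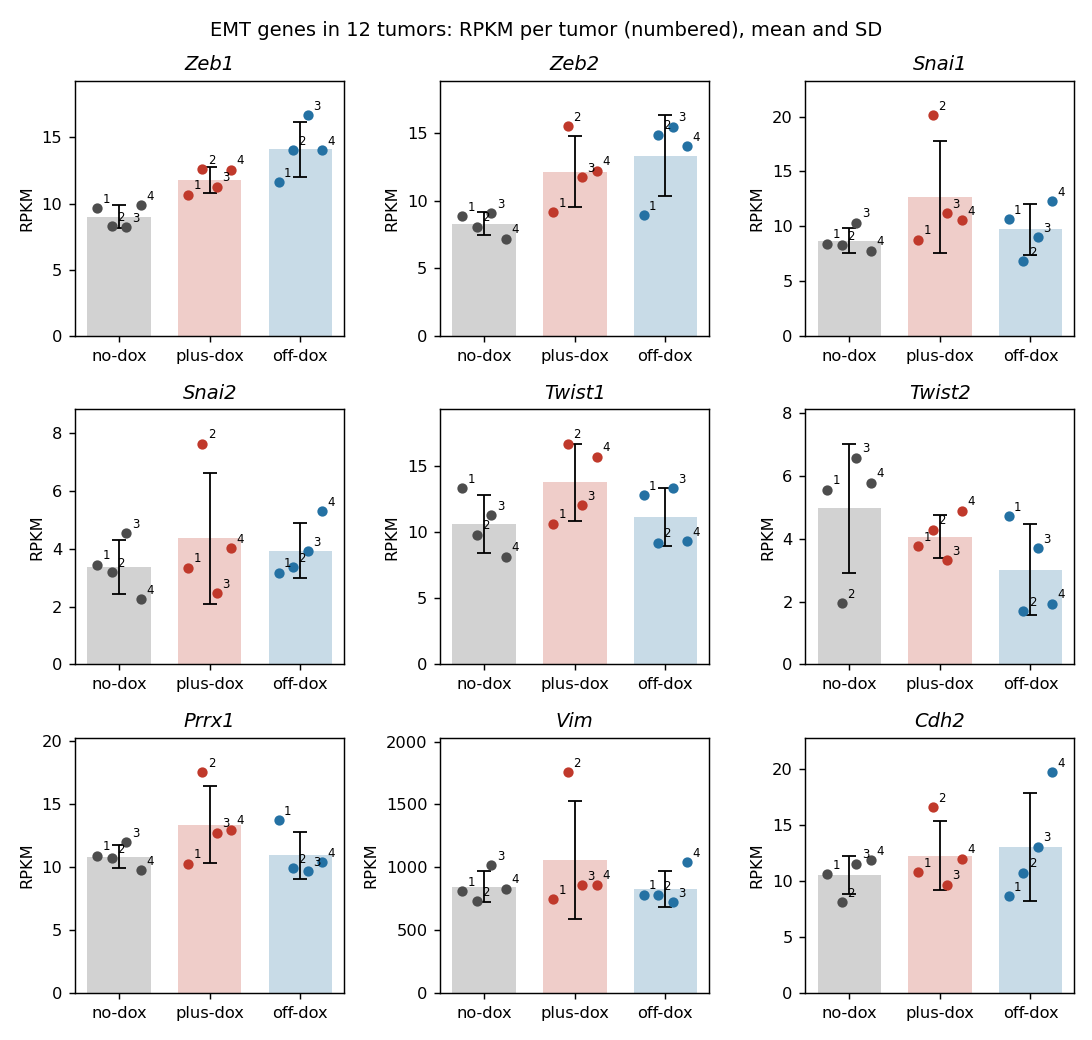
Expression (RPKM, linear axis from 0) of the 9 EMT genes in each of the 12 tumors. Points are tumors, numbered by replicate, bars are group means and error bars are SD (n = 4). The Zeb1 points of all 8 dox-exposed tumors lie above the 4 no-dox points, while plus-dox tumor 2 is the highest of its group for Zeb2, Snai1, Snai2, Twist1, Prrx1, Vim and Cdh2.

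A gene counted as called when it changed by over 1.5-fold at an adjusted p under 0.1, averaged over 0.25 RPKM and was longer than 250 bp, in edgeR's quasi-likelihood test and Benjamini-Hochberg adjustment over 17561 genes. Both comparisons with untreated tumors used the same 4 no-dox tumors and are therefore not independent. In bulk tumors, fewer cells of a type cannot be told apart from less RNA per cell.

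The ZEB repressors were the 2 EMT genes called between off-dox and no-dox tumors, both higher in off-dox tumors. They were 2 of 9, where 1.34% of all genes tested were called in this comparison. At an unadjusted p under 0.05 the same 2 were higher, against 10.9% of all genes. Zeb1 (chr18:5591889-5774909, plus strand, mm9) codes for a zinc finger and homeodomain repressor of Cdh1. Its levels in the no-dox tumors were 9.66, 8.29, 8.22 and 9.87 RPKM. In the off-dox tumors they were 11.6, 14.1, 16.7 and 14.1 RPKM, every one above every no-dox tumor. The difference was 1.60-fold (log2 fold change 0.67, SE 0.12, adjusted p = 0.079), and Zeb1 was number 18 of the 17561 genes when ranked by unadjusted p. Zeb2 (chr2:44839154-44968618, minus strand), its paralog with a similar repressor function and with high expression in macrophages, had 8.89, 8.10, 9.08 and 7.19 RPKM in no-dox tumors. The off-dox tumors had 8.94, 14.9, 15.5 and 14.1 RPKM, so that off-dox tumor 1 lay within the no-dox range and the other 3 above it. The difference was 1.64-fold (log2 fold change 0.71, SE 0.19, adjusted p = 0.097). Reads were counted without strand, and the Zeb1 row overlaps Gm10125, at no more than 0.313 RPKM, and the Zeb2 row overlaps Mir5129 and Gm13476, the latter at no more than 3.62 RPKM.

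Summed skeletal muscle markers were higher in off-dox tumors 2 and 3, at 947 and 1457 RPKM, than in any no-dox tumor (12.1 to 210.3). Off-dox tumors 1 and 4, at 146 and 14.0 RPKM, lay within the no-dox range. In off-dox vs no-dox tumors 12 of 12 markers had a log2 fold change above 0 (44.8% of all genes over 1 RPKM), with a median of 2.82. At an unadjusted p under 0.05 in edgeR, 9 were higher, against 10.9% of all genes. EdgeR called 1 (Actn3) and DESeq2 called 6, where they called 1.34% and 3.5% of all genes. The part of muscle RNA in the ZEB differences was not tested.

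Both ZEB calls lay close to the limit. DESeq2 without moderated fold changes, which called 3.5% of all genes, also called both (adjusted p = 0.00026 and 0.019), but calls were lost in an edgeR fit of the 8 tumors of the pair alone (adjusted p = 0.14 and 0.14) and without any 1 of no-dox tumors 1, 2, 3 and 4, plus-dox tumors 3 and 4 or off-dox tumors 2, 3 and 4 (highest adjusted p 0.22 and 0.23). The direction was kept throughout, with log2 fold changes of 0.59 to 0.76 for Zeb1 and 0.64 to 0.87 for Zeb2 with 1 tumor left out. Without plus-dox tumor 2 and off-dox tumor 4, the tumors that stood apart, both genes were called (adjusted p = 0.071 and 0.086).

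While on dox, the mean levels of Zeb1 and Zeb2 lay between those of the other groups, though single tumors overlapped with the off-dox range. Against no-dox tumors, 0 of the 9 EMT genes was called by edgeR or by DESeq2, where edgeR called 0% and DESeq2 0.729% of all genes. At an unadjusted p under 0.05, 2 of 9 were higher, against 8% of all genes. Zeb1 had 10.7, 12.6, 11.3 and 12.6 RPKM in the plus-dox tumors, again all above the 4 no-dox tumors, a lack of overlap (judged in log2 CPM) that 4.31% of all genes showed in this comparison, 5.83% in the off-dox comparison and 2.08% in both. The difference was 1.32-fold (log2 fold change 0.40, SE 0.12, unadjusted p = 0.0062, edgeR adjusted p = 0.32). Zeb2 had 9.15, 15.5, 11.7 and 12.2 RPKM, of which the lowest was just above the highest no-dox tumor in RPKM but below it in TMM-scaled log2 CPM (log2 fold change 0.56, SE 0.19, edgeR adjusted p = 0.33). Between off-dox and plus-dox tumors neither gene was called. Zeb1 differed by a log2 fold change of 0.28 (95% interval 0.02 to 0.54, edgeR adjusted p = 1) and Zeb2 by 0.15 (95% interval -0.27 to 0.57).

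The share of mapped reads that fell on genes moved with the ZEB genes more than with any other EMT gene. Over the 12 tumors Pearson's r of log2 CPM with this share was -0.88 for Zeb1 (Spearman's rho -0.87, permutation p = 0.00019, adjusted over 9 genes 0.0017) and -0.81 for Zeb2 (rho -0.77, permutation p = 0.0036, adjusted 0.016). The r values without the 2 tumors farthest from the median share were -0.80 and -0.71. The share separates the no-dox tumors from the rest, so r was also taken within the 8 dox-exposed tumors, where it was -0.72 for Zeb1 (rho -0.71, exact permutation p = 0.047, adjusted 0.42) and -0.57 for Zeb2 (rho -0.48, exact permutation p = 0.15, adjusted 0.62). For the other 7 genes r over the 12 tumors lay between -0.26 and 0.43. Zeb1 was at the low end of all genes, with 1.20% of 12700 genes at or below its r, and Zeb2 had 3.10%. With the share as a covariate, an analysis added after seeing the data, the off-dox vs no-dox log2 fold change was 0.37 for Zeb1 and 0.24 for Zeb2 (edgeR adjusted p = 1.00 for both) and no gene of the table was called. The part of this measure in the ZEB differences cannot be told apart from that of dox.

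**Figure D2:**
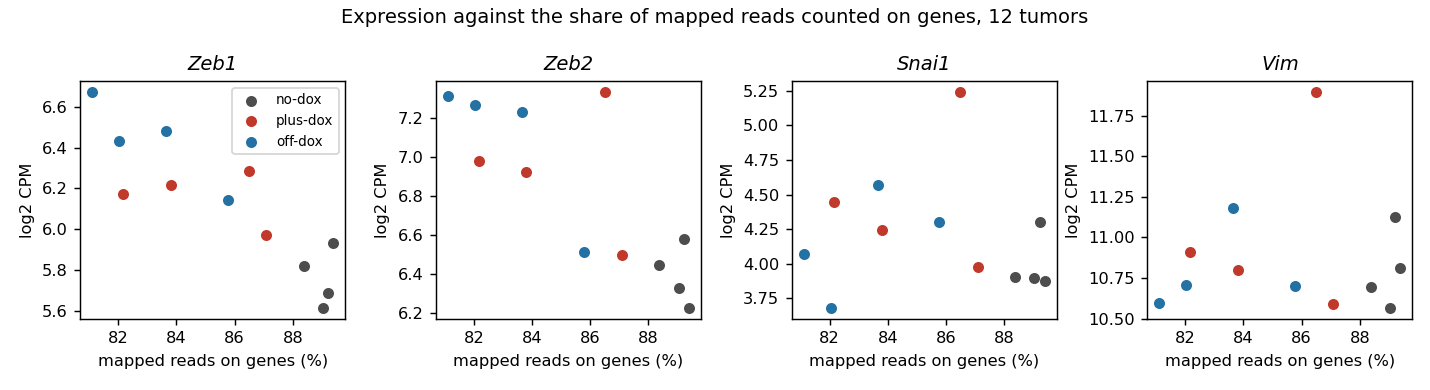
Expression (log2 CPM) of Zeb1, Zeb2, Snai1 and Vim against the percentage of mapped reads counted on genes, 1 point per tumor, colored by group. Zeb1 and Zeb2 are higher where the percentage is lower (r = -0.88 and -0.81), the 4 no-dox points sit at the right at 88.4% to 89.4%, and Snai1 and Vim show no such slope (r = -0.10 and 0.07).

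The SNAIL and TWIST factors and Prrx1 were not called in any comparison by edgeR or by DESeq2. Snai1 (chr2:167363727-167368311, plus strand), the zinc finger repressor that often starts EMT, had 8.39, 8.27, 10.3 and 7.77 RPKM in the no-dox group, 8.77, 20.1, 11.2 and 10.6 in the plus-dox group and 10.7, 6.83, 9.03 and 12.3 in the off-dox group. Plus-dox tumor 2 had the highest level of all, and the groups overlapped. The plus-dox vs no-dox log2 fold change of Snai1 was 0.56 (SE 0.26, edgeR adjusted p = 0.37), and it was 0.24 without plus-dox tumor 2. Snai2 (chr16:14705952-14709475, plus strand), its relative in neural crest and basal epithelium, had 3.46, 3.20, 4.54 and 2.25 RPKM in the no-dox group, 3.36, 7.65, 2.48 and 4.03 in the plus-dox group and 3.18, 3.38, 3.92 and 5.31 in the off-dox group. Its plus-dox vs no-dox log2 fold change of 0.39 (95% interval -0.34 to 1.12) was -0.04 without plus-dox tumor 2.

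Twist1 (chr12:34642536-34644696, plus strand), a basic helix-loop-helix factor of mesoderm and a driver of EMT, had 13.3, 9.82, 11.3 and 8.14 RPKM in the no-dox group, 10.6, 16.7, 12.0 and 15.7 in the plus-dox group and 12.8, 9.21, 13.3 and 9.31 in the off-dox group. Its plus-dox vs no-dox log2 fold change was 0.39 (95% interval -0.03 to 0.80, edgeR adjusted p = 0.39). Twist2 (chr1:93698054-93744604, plus strand) was the single gene below 0 in both comparisons with no-dox tumors. It had 5.56, 1.95, 6.57 and 5.78 RPKM in the no-dox group, 3.77, 4.28, 3.32 and 4.89 in the plus-dox group and 4.72, 1.70, 3.71 and 1.93 in the off-dox group, and no-dox tumor 2 lay with the lowest. The off-dox vs no-dox log2 fold change of Twist2 was -0.71 (95% interval -1.56 to 0.14, edgeR adjusted p = 0.32), an interval that includes both no difference and a large one. Prrx1 (chr1:165175250-165243781, minus strand), a homeobox factor of limb and connective tissue mesenchyme, had 10.9, 10.7, 12.0 and 9.74 RPKM in the no-dox group, 10.3, 17.5, 12.7 and 12.9 in the plus-dox group and 13.7, 9.90, 9.68 and 10.4 in the off-dox group. Its off-dox and no-dox means, 10.9 ± 1.88 and 10.8 ± 0.915 RPKM (SD, n = 4), were close, with a log2 fold change of 0.04 and a 95% interval of -0.32 to 0.40.

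Vim and Cdh2, the structural markers, were not called in any comparison by edgeR or by DESeq2 either. Vim (chr2:13495938-13504453, plus strand) had 808, 731, 1015 and 828 RPKM in the no-dox group, 746, 1756, 857 and 860 in the plus-dox group and 781, 776, 720 and 1041 in the off-dox group. Plus-dox tumor 2 held more Vim RNA than any other tumor and the remaining 11 ranged from 720 to 1041. The off-dox vs no-dox log2 fold change of Vim was 0.00 with a 95% interval of -0.58 to 0.58. Plus-dox vs no-dox it was 0.33 (95% interval -0.25 to 0.91), and -0.04 without plus-dox tumor 2. Cdh2 (chr18:16747386-16967558, minus strand), N-cadherin, the adhesion molecule that takes over when E-cadherin is lost, had 10.6, 8.10, 11.5 and 11.9 RPKM in the no-dox group, 10.8, 16.6, 9.65 and 12.0 in the plus-dox group and 8.64, 10.7, 13.1 and 19.7 in the off-dox group. Its highest levels were again in plus-dox tumor 2 and off-dox tumor 4. The off-dox vs no-dox log2 fold change of Cdh2 was 0.34 (95% interval -0.22 to 0.90), and 0.05 without off-dox tumor 4.

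Over the 9 EMT genes, 8 had a log2 fold change above 0 in plus-dox vs no-dox tumors, with a median of 0.39, where 45.1% of all genes over 1 RPKM were above 0 and the median of all genes tested was 0.01. Without plus-dox tumor 2, 6 of 9 were above 0 with a median of 0.16. In off-dox vs no-dox tumors 8 of 9 were above 0, Vim barely so, with a median of 0.19 against 44.8% and 0.01. That median was 0.05 without off-dox tumor 4, 0.12 without no-dox tumor 4, 0.31 without no-dox tumor 3 and 0.33 without off-dox tumor 2. In off-dox vs plus-dox tumors 3 of 9 (Zeb1, Zeb2 and Cdh2) were above 0, with a median of -0.28 against 49.3% and 0.00. Without plus-dox tumor 2, 5 of 9 were above 0 with a median of 0.04. In this last comparison 0 of 9 were called by edgeR or DESeq2, with 1 at an unadjusted p under 0.05 (Zeb1, higher, as were 1.25% of all genes), and edgeR called 0% and DESeq2 0.0342% of all genes. Between these groups 0 of 9 were without overlap and higher, where 0.689% of all genes were.

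**Figure D3:**
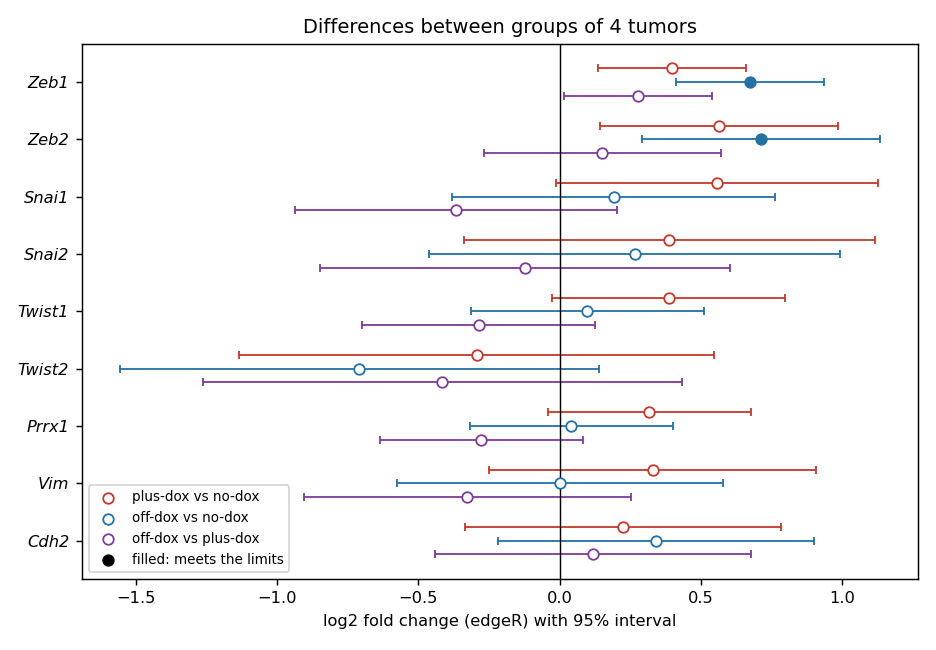
Log2 fold change (edgeR) of each EMT gene in the 3 comparisons of groups of 4 tumors, with 95% intervals as bars and filled symbols for genes that met the limits of the call. Zeb1 and Zeb2 in off-dox vs no-dox tumors (0.67 and 0.71) are the filled symbols, and the intervals of Snai1, Snai2, Twist1, Twist2, Prrx1, Vim and Cdh2 all include 0.

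The EMT genes did not vary as 1 block over the tumors. Among the 36 pairs, Pearson's r of log2 CPM over 12 tumors had a median of 0.45 and ran from -0.38 (Zeb2 with Twist2) to 0.89 (Snai1 with Vim). Without plus-dox tumor 2 and off-dox tumor 4 the median was 0.31. Zeb1 with Zeb2 (r = 0.86 with and without the 2 tumors) and Snai1 with Prrx1 (r = 0.87 both ways) held without them. Snai1 with Vim went from 0.89 to 0.54, Snai1 with Snai2 from 0.75 to 0.18 and Snai2 with Vim from 0.79 to 0.21. These r values are given as a description, over tumors that also share depth and cell content.

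Among 12691 genes over 1 RPKM, the 3 whose pattern over the 12 tumors was most like each EMT gene, by Pearson's r of log2 CPM, were Nktr (r = 0.96), Atxn2l and Tubgcp6 for Zeb1, and Myo5a (r = 0.98), Myo9a and Gm7102 for Zeb2. For Snai1 they were Armcx2 (r = 0.95), Cd248, a stromal and pericyte antigen, and Ercc1, and for Snai2 they were Prl2c2 (r = 0.96) and D0H4S114 among others. Twist1 was closest to Mfng (r = 0.90), Dnm1 and Gpc1. Twist2 was closest to Tpsab1 (r = 0.88) and Tpsb2, the tryptases of mast cells, and to Prex2. For Prrx1 they were Lrp3 (r = 0.95), Ccdc8 and Rftn2, for Vim Gnas (r = 0.97), Wnt5a and Lrp11, and for Cdh2 Anxa6 (r = 0.95), Axl, a receptor kinase of mesenchymal cells, and Clcf1. The genes most like Zeb1 and Zeb2 kept an r of 0.96 to 0.97 without the 2 tumors that stood apart. Those most like Snai1 had 0.80 to 0.82 and those most like Vim 0.75 to 0.91.

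Whole tumors were sequenced, so marker lists of other cell types were set beside the EMT genes. Fibroblast markers (12 genes, none under a mean of 1 RPKM) summed to 1253 to 2256 RPKM in the no-dox group, 1762 to 3322 in the plus-dox group and 1442 to 1649 in the off-dox group. Macrophage markers (12, none under 1) summed to 2342 to 3385, 2642 to 3164 and 2397 to 4251 RPKM. Endothelial markers (12, none under 1) summed to 56.6 to 74.9, 66.0 to 181 and 60.1 to 90.8 RPKM, with the highest sum in plus-dox tumor 2. Markers of pericytes and smooth muscle (8, none under 1) summed to 133 to 207, 154 to 237 and 150 to 230.2 RPKM. These stromal lists were present in every tumor, and each of the cell types is able to express several of the EMT genes.

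Skeletal muscle markers (12, of which only Myh2 was under 1) varied most, from 12.1 to 210.3 RPKM in the no-dox group, 174 to 534 in the plus-dox group and 14.0 to 1457 in the off-dox group. In 2 off-dox tumors the muscle markers lay within the no-dox range. Off-dox tumor 4, at 14.0 RPKM of muscle markers, had 14.1 RPKM of both Zeb1 and Zeb2, and off-dox tumor 1, at 146 RPKM of muscle markers, had 11.6 RPKM of Zeb1 and 8.94 RPKM of Zeb2. Adipocyte markers (8, with Lep under 1) summed to 6.55 to 732, 7.03 to 425 and 14.3 to 178 RPKM, and Schwann cell markers (7, with 2 under 1, Sox10 among them) to 23.9 to 37.7, 14.8 to 25.6 and 13.7 to 36.5 RPKM. Epithelial markers (12, with 1 under 1) summed to 2374 to 3280 RPKM without dox, to 1372 to 2142 on dox, all below the former, and to 1122 to 2799 off dox. The share of all genes that lay lower without overlap was not counted. Krt18 and Krt8, with means of 685 and 673 RPKM over the 12 tumors, weighed heavily in this sum. Cdh1 (90.6 to 191 and 22.1 to 122 RPKM) and Cldn4 (15.2 to 45.6 and 1.33 to 41.1) overlapped between no-dox and plus-dox tumors, while Krt8 and Krt18 did not.

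Each EMT gene was correlated with the mean log2 CPM of 7 of these lists (all but Schwann cells), 63 relations in all, and 17 had an adjusted p under 0.1 over the 12 tumors (permutation test of Pearson's r). The highest were Snai1 with endothelial markers (r = 0.92, rho 0.80, permutation p = 0.00013, adjusted 0.0082), Vim with endothelial markers (r = 0.90, rho 0.74, permutation p = 0.00099, adjusted 0.021) and Prrx1 with endothelial and fibroblast markers (r = 0.83 and 0.81, permutation adjusted p = 0.032 for both). Inverse relations were seen between epithelial markers and Snai2 (r = -0.88, rho -0.84, permutation adjusted p = 0.012) and Cdh2 (r = -0.80, rho -0.80, permutation adjusted p = 0.032). When the 2 tumors farthest in each list's level were left out, 0 of the 63 passed with the 10 tumors that remained. Some r values stayed high there, such as 0.86 for Snai2 and 0.77 for Vim with endothelial markers and 0.75 for Snai1 with markers of pericytes and smooth muscle. Others rested on the tumors left out, since r fell to 0.04 for Vim with fibroblast markers and turned from -0.72 and -0.78 to 0.12 and 0.11 for Snai1 and Vim with epithelial markers. Within the 10 tumors other than plus-dox tumor 2 and off-dox tumor 4, r with endothelial markers was 0.72 for Snai1 and Prrx1. It was 0.59 for Vim and only 0.11 for Snai2, so the Snai2 relation did not hold under this omission. For Snai1 with markers of pericytes and smooth muscle r was 0.59 there, and for Cdh2 with epithelial markers -0.66. Skeletal muscle markers had r of 0.74 with Zeb1 and 0.87 with Zeb2 in these 10 tumors, against 0.46 and 0.58 over all 12 (permutation adjusted p = 0.30 and 0.14) and 0.21 and 0.30 without the 2 tumors farthest in muscle marker level. Zeb1 had no relation that passed over the 12 tumors (r between -0.43 and 0.54). Zeb2 passed with 3 lists, of which pericytes and smooth muscle had the highest r (0.72, rho 0.79, permutation adjusted p = 0.046). The part of these cell types in the levels of the EMT genes was not tested.

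**Figure D4:**
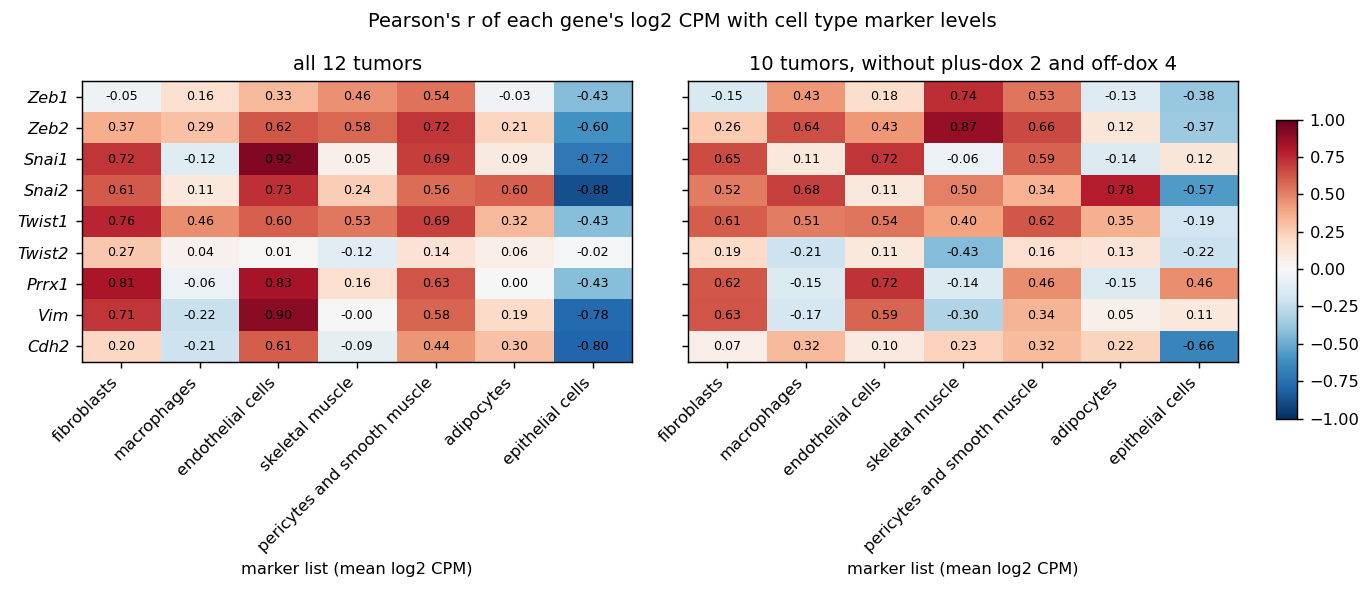
Pearson's r between the log2 CPM of each EMT gene (rows) and the mean log2 CPM of each cell type marker list (columns), over all 12 tumors (left) and without plus-dox 2 and off-dox 4 (right), on a color scale from -1 to 1. Snai1 with endothelial cells goes from 0.92 to 0.72 and Vim with epithelial cells from -0.78 to 0.11.

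The wider EMT program was followed in 5 lists of genes, all of them tested. For comparison, 45.1% of all genes over 1 RPKM were above 0 in plus-dox vs no-dox and 44.8% in off-dox vs no-dox tumors. At an unadjusted p under 0.05 in edgeR, 8% and 10.9% of all genes were higher. By edgeR, 0 genes of these lists were called in any comparison. Of 17 other EMT transcription factors, 8 were above 0 in plus-dox vs no-dox tumors, with a median log2 fold change of -0.02, and 2 were higher at an unadjusted p under 0.05. In off-dox vs no-dox tumors 9 were above 0, 3 at an unadjusted p under 0.05, and Runx2 was among those called by DESeq2. Runx2, an osteoblast factor, had 3.78 to 4.54 RPKM in the no-dox group, 5.35 to 7.99 in the plus-dox group and 4.97 to 9.66 in the off-dox group (log2 fold change 0.69, edgeR adjusted p = 0.32, and 0.70, edgeR adjusted p = 0.12). Its RPKM in both groups lay above the no-dox range. Of all genes, 2.08% were higher without overlap in both comparisons, judged in log2 CPM. Hmga2, a chromatin protein of embryonic and tumor cells, had 19.0 to 62.2, 27.2 to 113 and 26.2 to 134 RPKM. The HLH inhibitors Id2 and Id1 were the most abundant of the list, with means of 171 and 85.0 RPKM over the 12 tumors.

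Of 20 epithelial genes repressed in EMT, 4 were above 0 in plus-dox vs no-dox and 2 in off-dox vs no-dox tumors. Of all genes over 1 RPKM, 45.1% and 44.8% were above 0. Medians of the 20 were -0.60 and -0.65 on the log2 scale, where all genes tested had 0.01. Plus-dox tumor 2 and off-dox tumor 4 lay farthest from the median level of the epithelial marker list. Their weight in the medians of the 20 was not tested. Some plus-dox ranges were wide, such as 22.1 to 122 RPKM for Cdh1 and 0.861 to 22.3 for Ocln. Only Krt8 of this list was called by DESeq2 in both comparisons, where DESeq2 called 0.729% and 3.5% of all genes. Krt8, a keratin of simple epithelium, had 830 to 972 RPKM in the no-dox group, 504 to 588 in the plus-dox group and 318 to 810 in the off-dox group (log2 fold change -0.74 vs no-dox in both, edgeR adjusted p = 0.32 and 0.12). Its partner Krt18 had 738 to 947, 497 to 647 and 391 to 811 RPKM. At an unadjusted p under 0.05, 1 gene of the list was lower and 2 were higher in plus-dox vs no-dox tumors, where 5.67% of all genes were lower and 8% higher. Off-dox vs no-dox, 1 was lower, against 9.48% of all genes, and off-dox vs plus-dox 3 were lower, against 1.81%. In that last comparison 13 of the 20 had a log2 fold change above 0. The 3 lower genes were Ap1m2, Marveld2 and Cldn3, whose plus-dox tumors ranged widely (0.0351 to 2.35, 0.135 to 0.986 and 0.00481 to 13.2 RPKM). Ap1m2 and Marveld2 were near the floor, with means of 0.403 and 0.279 RPKM over all tumors. Of genes over 1 RPKM in the list, Cldn3, a claudin, and Rab25, an epithelial trafficking protein, had the largest differences in plus-dox vs no-dox tumors. Cldn3 had a log2 fold change of 2.51 (0.428 to 2.29 RPKM in no-dox and 0.00481 to 13.2 in plus-dox tumors) and Rab25 of -1.26 (3.09 to 17.4 and 0.0288 to 4.81 RPKM). Crb3, whose promoter window is shown, had 22.5 to 39.0, 1.72 to 26.7 and 5.02 to 40.0 RPKM, and Cldn4 had 15.2 to 45.6, 1.33 to 41.1 and 15.6 to 63.0 RPKM, so all 3 groups overlapped for both.

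Among 9 regulators that hold the epithelial state, 2 were above 0 in each comparison with no-dox tumors, with medians of -0.29 and -0.31, and DESeq2 called 0. Elf3 and Ehf, epithelial ETS factors and the most abundant of the list, had 31.3 to 83.7 and 21.8 to 56.9 RPKM in no-dox tumors. In plus-dox tumors they had 2.67 to 46.8 and 1.32 to 38.7 RPKM, and in off-dox tumors 12.2 to 66.8 and 5.32 to 46.0 RPKM. All 3 groups overlapped for both. Esrp1, an epithelial splicing factor, had 5.58 to 20.6, 0.578 to 8.85 and 2.27 to 14.6 RPKM in the 3 groups, in the order no-dox, plus-dox, off-dox. Of these 9 genes 1 was higher at an unadjusted p under 0.05 in plus-dox tumors, against 8% of all genes. In off-dox tumors 1 was lower, against 9.48%. The medians of this list were not recomputed without single tumors.

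A list of 16 genes covered signaling pathways that act on EMT, with inhibitors as well as inducers. Of these, 11 were above 0 in plus-dox vs no-dox and 10 in off-dox vs no-dox tumors, with medians of 0.13 in both. In these comparisons 0 passed an unadjusted p of 0.05 and DESeq2 called 0. Tgfbr2, the type II receptor for TGF-beta, had 49.2 to 52.5, 48.8 to 68.0 and 36.0 to 60.7 RPKM, and the ligand Tgfb3 had 31.7 to 49.6, 26.6 to 51.4 and 25.4 to 56.3 RPKM. Jag1, a Notch ligand, and Bmp7 had the largest log2 fold changes of the list in plus-dox tumors (0.99 and 0.77) with wide ranges of 13.5 to 65.2 and 9.64 to 84.2 RPKM. Of 14 other mesenchymal genes, 12 were above 0 in plus-dox vs no-dox tumors (median 0.37) and 10 in off-dox vs no-dox tumors (median 0.11). Of all genes over 1 RPKM, 45.1% and 44.8% were above 0. The medians of this list were not recomputed without plus-dox tumor 2. Fscn1, which bundles actin in filopodia, was called by DESeq2 in plus-dox tumors, where DESeq2 called 0.729% of all genes. At an unadjusted p under 0.05 in edgeR, 2 genes of this list were higher there, against 8% of all genes. Fscn1 had 10.1 to 13.9 RPKM in the no-dox group, 14.8 to 27.4 in the plus-dox group and 10.8 to 15.7 in the off-dox group (plus-dox vs no-dox log2 fold change 0.75, edgeR adjusted p = 0.32). Lox, a collagen crosslinking enzyme, had 29.4 to 44.4, 34.2 to 93.2 and 27.7 to 41.5 RPKM. S100a4 and Fn1 were the most abundant of the list, with means of 721 and 510.2 RPKM over the 12 tumors, and their groups overlapped.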

How the data were processed

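RNA was measured in 12 whole subcutaneous tumors by polyA-selected, unstranded single-end sequencing. Per the labels and the study's methods, reads of 50 bp were aligned by the authors to mm9 with TopHat (submitters' processing notes: TopHat 1.4.1, Bowtie 0.12.8, bedtools 2.16.2), and coverage was summed over each gene's unambiguous exons. The deposited values are expected counts, which are not normalized and not all whole, and the RPKM of the authors, per kilobase and total mapped reads. Reads with several positions may be split between near-identical copies.

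Expected counts were rounded to whole numbers and tested with edgeR (version 4.0.16, TMM, quasi-likelihood, genes with at least 10 counts summed, 12 tumors in 1 fit). DESeq2 (version 1.42.0) was an alternative. Limits were those of the study. Log2 CPM used a prior count of 2, and permutation tests over 12 tumors drew 100000 resamples. Scripts were tested on simulated data.

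The EMT genes and all lists were chosen with earlier results of these data known. Named genes were the 9 EMT genes, the 3 most similar genes of each, genes overlapping them, Trp53, and in each list the genes called, the 2 most abundant and the 2 with the largest plus-dox change over 1 RPKM. Crb3, Cldn4, Ap1m2, Marveld2, single low markers and genes called by DESeq2 alone were added after seeing values. Replicate libraries differed well beyond sampling noise. Alternatives also covered RLE normalization, other count filters, single pairs of groups and each tumor left out. Intervals cover the spread between tumors. Some items are not reported here.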

Additional observations from a re-analysis of the deposited data

Results flagged for a closer look

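Vim in plus-dox tumor 2, at 1756 RPKM, lay far from the other 3 plus-dox tumors, with a gap to the nearest that was 0.887 of the group's range and past Dixon's limit for 4 samples. The summed skeletal muscle markers of the same tumor, at 534 RPKM, also lay apart, with 0.893 of the range. Chance flags about 1 in 20 groups, and 27 groups of EMT genes and 24 groups of marker lists were examined.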

How the results depend on the processing

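Of 567 log2 fold changes of EMT genes under alternatives, 526 kept their direction and side of the limit, 25 for Zeb1 and Zeb2 lost the call and 16 changed sign. The EMT genes called in off-dox vs no-dox tumors were 2, and 1 without a count filter (Zeb1 was called, and Zeb2 was not at an adjusted p of 0.11), 0 in the 8 tumors of the pair, 0 with the share of reads on genes as covariate and 0 to 2 with 1 tumor left out. With the replicate number as a block, 0 EMT genes and 0 genes in all were called in any comparison (Zeb1 and Zeb2 in off-dox vs no-dox tumors, adjusted p = 0.13 and 0.14). Nothing in the labels makes equal numbers a pairing. The deviations of tumors from their group means correlated with a mean r of -0.080 over 12 same-number and 0.039 over 36 other pairs, and 0 of 12 tumors correlated best with its own number in both other groups. In the blocked fit Vim in off-dox vs no-dox tumors had a log2 fold change of -0.0087. Genes called over the table in off-dox vs no-dox tumors were 235, and 615 and 396 by DESeq2 without and with moderated fold changes, 122 without a count filter, 365 with 10 counts in every tumor, 3 in the pair alone, 0 with the covariate, 471 without plus-dox 2 and off-dox 4, and 0 to 789 with 1 tumor left out. In plus-dox vs no-dox tumors they were 0, and 128 and 90 by DESeq2 without and with moderation, and 0 to 3 with 1 tumor left out. In off-dox vs plus-dox tumors they were 0, and 6 and 4 by DESeq2, and 0 to 1 with 1 tumor left out. The cause was not tested.

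With 1 tumor left out, log2 fold changes that changed sign ranged from -0.038 to 0.59 for Snai2 and -0.038 to 0.47 for Vim in plus-dox vs no-dox, from -0.077 to 0.11 for Prrx1 and -0.15 to 0.12 for Vim in off-dox vs no-dox, and from -0.32 to 0.30 for Snai2, -0.48 to 0.040 for Vim and -0.18 to 0.31 for Cdh2 in off-dox vs plus-dox tumors. Without both plus-dox 2 and off-dox 4, Snai2 and Vim were at -0.043 and -0.043 in plus-dox vs no-dox, Vim at -0.14 in off-dox vs no-dox and Snai2 at 0.11 in off-dox vs plus-dox tumors. With the covariate, Zeb2 was at -0.0092 and Snai2 at 0.10 in off-dox vs plus-dox tumors. Of 63 marker relations 17 passed, and 0 without the 2 tumors farthest in list level, where r of Snai1 and Vim with epithelial markers was 0.12 and 0.11. The 9 genes had at least 54 counts in every tumor, so depth limits mainly Twist2. The covariate and the joint omission of plus-dox 2 and off-dox 4 were chosen after seeing the data.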
